A study of Mus musculus with 5 samples.

Results

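Collagens and laminins are the fibre- and sheet-forming proteins of the extracellular matrix, and integrins are receptors on the cell surface that bind them. The genes described here were chosen by symbol alone and comprise every collagen chain (Col followed by type and chain number), laminin chain (Lama, Lamb, Lamc), integrin alpha chain (Itga) and integrin beta chain (Itgb1 to Itgb8) in the deposited count tables. There are 80 such genes among 29495, made up of 44 collagen, 11 laminin, 18 integrin alpha and 7 integrin beta genes. Of these, 60 had at least 10 counts in at least 2 libraries and were tested, among 16051 genes tested in all.

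RNA was sequenced from mouse glioma cells that had been grown together with neurons of the olfactory bulb. The glioma cells carried the genotype p53-/-;NF1-/-;tdTomato+/- and came from a tumor model of mixed CD-1 and C57BL/6 background, so the cells of both groups lack p53 and NF1, and the labels do not say whether more than 1 tumor or cell line was used. The neurons came from C57BL/6 pups, and tumor cells were sorted from them by the red fluorescent protein tdTomato before polyadenylated RNA was taken. Cells in 3 libraries (IGF-1 replicates 3, 4 and 5) had been kept overnight with insulin-like growth factor 1, called IGF-1 below, at 20 ng/mL, and cells in 2 libraries (control replicates 1 and 2) had not. Per the labels' protocols, insulin was in the medium in which neurons were first plated, and B27 and serum were in those that followed, so the co-cultures of both groups were not free of growth factors. Separate cultures for the libraries are not stated in the labels, so every p below measures only the spread between these libraries.

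In the collagens, chains wind around each other in triple helices. Fibrillar collagens build fibrils, fibril-associated collagens coat them, type IV collagen forms the network of basement membranes, and type VI collagen forms beaded filaments. Laminins are cross-shaped trimers of an alpha, a beta and a gamma chain, and an integrin is a pair of an alpha and a beta chain that links such matrix proteins to the cytoskeleton. Brain tissue holds little fibrillar collagen outside blood vessels and meninges, and integrins that bind laminin and collagen are known for their part in glioma cell adhesion and movement.

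Libraries held 18359421, 19036906 and 20144181 counts with IGF-1 and 17365697 and 16944315 counts in the controls, and 0.764% to 0.814% of the counts of each library fell on the 80 genes. IGF-1 replicate 5 stood apart. Over the 31 members with a mean of at least 10 CPM (the count of a gene relative to the library size, scaled by TMM factors), the log2 difference between libraries had an SD of 0.291 and 0.305 between replicate 5 and the other IGF-1 libraries, against 0.143 between IGF-1 replicates 3 and 4 and 0.104 between the controls. Results are therefore also given without it. Markers of glioma and oligodendrocyte progenitor cells summed to 4520, 4510 and 4960 CPM with IGF-1 and to 4372 and 4218 CPM in the controls. Among them Cspg4 had 553, 571 and 758 CPM with IGF-1 and 523 and 473 CPM in the controls. Neuron markers summed to 9.52, 10.6 and 16.5 CPM with IGF-1 and to 9.11 and 9.30 CPM in the controls, and meningeal fibroblast markers to 21.3, 24.6 and 30.2 CPM with IGF-1 and to 22.4 and 21.4 CPM in the controls. These sums, that of the glioma markers included, were highest in replicate 5, and their part in its differences was not tested. Single genes carried the neuron and meningeal sums. Syt1 had 5.17, 5.55 and 11.3 CPM with IGF-1 and 4.67 and 5.54 CPM in the controls, and Foxd1 had 13.4, 15.8 and 20.0 CPM with IGF-1 and 15.3 and 12.2 CPM in the controls. The fibroblast marker Dcn had 1.49, 2.38 and 2.30 CPM with IGF-1 and 2.19 and 2.30 CPM in the controls. Of these lists 6 of 9 neuron and 3 of 6 meningeal markers had a mean under 1 CPM, as had 5 of 6 endothelial markers, which summed to 7.87, 9.20 and 5.67 CPM with IGF-1 and to 6.80 and 9.07 CPM in the controls. Astrocyte markers summed to 197, 213 and 205 CPM with IGF-1 and to 219 and 217 CPM in the controls. Most of this was Slc1a3 and Slc1a2, and the cells of origin were not tested. Olfactory ensheathing markers summed to 7.49, 7.62 and 7.33 CPM with IGF-1 and to 6.46 and 8.48 CPM in the controls. Of the pericyte markers 5 of 7 had a mean under 1 CPM, and Cspg4, also a glioma marker, made up most of their sum.

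Most of the summed level of the members came from few genes. Levels of different genes were compared as CPM per kilobase of the principal transcript. They are levels of RNA, also where chains are named, and protein was not measured here. The 5 highest members, Itgb1, Col11a1, Col16a1, Col6a1 and Itgav, held 73.8% of the summed level of all 80 genes, and all 5 kept their ranks when the length of all exons of the gene was used in place of 1 transcript. Above the median tested gene (7.55 CPM per kilobase) stood 18 of the 60 tested members, and 22 of the 60 had less than 1 CPM per kilobase. As in any bulk measurement, fewer cells with a transcript and less transcript in each cell cannot be told apart.

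**Figure D1:**
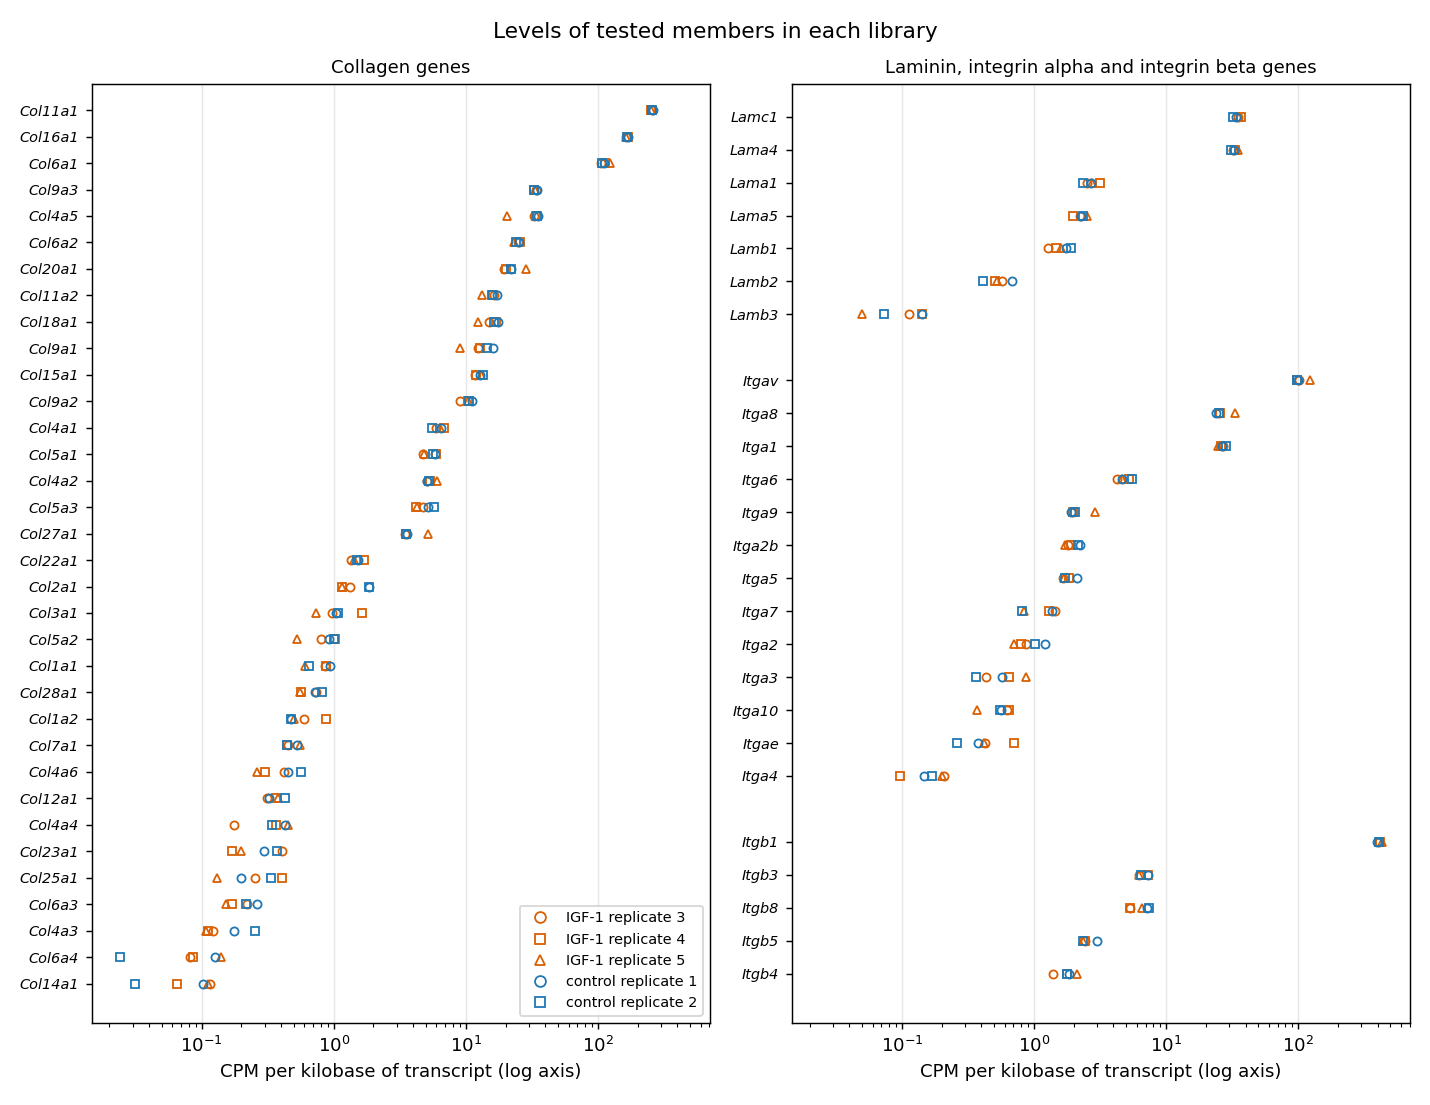
Levels of tested members in CPM per kilobase of transcript (log axis) in each of the 5 libraries, collagens at left and laminin and integrin chains at right, with genes ordered by their mean within a family. Itgb1, Col11a1, Col16a1, Col6a1 and Itgav lie to the right of the others, and the 5 symbols of such a gene nearly cover each other, while those of genes under 1 CPM per kilobase are spread out.

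Among fibrillar collagens Col11a1 led. It encodes a chain of type XI collagen, a minor fibrillar collagen that sits inside the fibrils of cartilage, where type II collagen is the main one. Col11a1 had 1975, 1935 and 1943 CPM with IGF-1 and 1999 and 1980 CPM in the controls. All 5 libraries lay close together, with each IGF-1 library below each control. The log2 fold change was −0.03 (95% interval −0.16 to 0.10), which is within the spread between libraries. At 256 CPM per kilobase it held 34.2% of the summed collagen level and ranked at percentile 99.0 of tested genes. Its partner chains were far lower. Col11a2 had 15.7 CPM per kilobase, and Col2a1, the gene of the type II chain, had 1.46. The chains of type I and III collagen, the usual fibrils of connective tissue, stood at 0.787 (Col1a1), 0.585 (Col1a2) and 1.09 (Col3a1) CPM per kilobase. Type V chains, which nucleate type I fibrils, were at 5.39 (Col5a1), 0.852 (Col5a2) and 4.83 (Col5a3), and Col27a1, a fibrillar collagen of cartilage, was at 3.84.

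Fibril-associated collagens made up 33.0% of the summed collagen level per kilobase, against 38.8% for fibrillar, 18.3% for type VI and 5.84% for type IV collagens. Col16a1, whose product binds to fibrils and is found near basement membranes, supplied most of it. It had 851, 877 and 851 CPM with IGF-1 and 877 and 871 CPM in the controls, a log2 fold change of −0.02. The groups overlapped. Col9a3 and Col20a1 followed at 33.5 and 22.5 CPM per kilobase. The 3 chains of type IX collagen, which form a heterotrimer on cartilage fibrils, stood at unequal levels of 33.5 (Col9a3), 13.0 (Col9a1) and 10.3 (Col9a2) CPM per kilobase. Col22a1, Col12a1 and Col14a1 were at 1.50, 0.362 and 0.0852. The multiplexins Col18a1 and Col15a1, basement membrane collagens with a cleavable C-terminal domain, were at 15.6 and 12.6 CPM per kilobase.

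Type VI collagen is classically assembled from 3 different chains, and here their transcripts were present in very unequal amounts. Col6a1 had 435, 466 and 509 CPM with IGF-1 and 455 and 442 CPM in the controls, and Col6a2 had 98.8, 101 and 91.3 CPM with IGF-1 and 99.4 and 94.3 CPM in the controls. Col6a3, the long chain, had 1.98, 1.53 and 1.37 CPM with IGF-1 and 2.36 and 1.94 CPM in the controls. The groups overlapped for all 3. Per kilobase, Col6a1 was 4.24 to 5.36 times Col6a2 and 422 to 817 times Col6a3 over the 5 libraries. With all exons as length the mean level of Col6a1 was 9.04 times that of Col6a2, since the exons of Col6a2 cover 8326 bases and its principal transcript 3949. Col6a4 was at 0.0913 CPM per kilobase, and Col6a5 and Col6a6 did not reach the count filter.

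The 6 genes of type IV collagen lie in 3 head-to-head pairs in the genome, and the levels within a pair were alike in one and far apart in another. Col4a1 and Col4a2, the chains of the common basement membrane network, had a ratio of 1.05 to 1.27 per kilobase over the 5 libraries. Col4a5, a chain of the networks of kidney and other specialised basement membranes, was instead 60.8 to 112 times as high as Col4a6. The windows around the transcription starts of these pairs are shown because the levels of their genes can be set beside them, and that of Itgb8 because it is the integrin gene with the smallest p with IGF-1. Each runs from 250 bases before to 50 bases after the start in RefSeq (build GRCm38.p6, whereas the counts were made on GRCm39), 5′ to 3′ on the strand of the gene. Capitals mark matches on either strand to the TATA box (letters TATAAA), the CCAAT box (letters CCAAT) or the GC box (letters GGGCGG), and no match overlaps another. The windows lie at chr8:11312777-11313076 on the minus strand (Col4a1), chr8:11312555-11312854 on the plus strand (Col4a2), chrX:141475169-141475468 on the plus strand (Col4a5), chrX:141474027-141474326 on the minus strand (Col4a6) and chr12:119238227-119238526 on the minus strand (Itgb8).
Col4a1: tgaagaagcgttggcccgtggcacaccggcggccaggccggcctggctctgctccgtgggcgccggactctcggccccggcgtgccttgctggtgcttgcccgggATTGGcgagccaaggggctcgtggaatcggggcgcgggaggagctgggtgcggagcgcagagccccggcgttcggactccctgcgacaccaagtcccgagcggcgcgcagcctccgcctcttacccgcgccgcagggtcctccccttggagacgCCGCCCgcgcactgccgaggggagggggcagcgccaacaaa
Col4a2: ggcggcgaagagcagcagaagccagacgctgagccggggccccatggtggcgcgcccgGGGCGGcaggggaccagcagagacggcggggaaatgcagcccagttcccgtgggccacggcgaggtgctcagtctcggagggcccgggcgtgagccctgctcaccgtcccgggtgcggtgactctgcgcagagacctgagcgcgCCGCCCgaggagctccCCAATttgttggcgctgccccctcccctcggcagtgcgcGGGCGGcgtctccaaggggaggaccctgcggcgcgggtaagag
Col4a5: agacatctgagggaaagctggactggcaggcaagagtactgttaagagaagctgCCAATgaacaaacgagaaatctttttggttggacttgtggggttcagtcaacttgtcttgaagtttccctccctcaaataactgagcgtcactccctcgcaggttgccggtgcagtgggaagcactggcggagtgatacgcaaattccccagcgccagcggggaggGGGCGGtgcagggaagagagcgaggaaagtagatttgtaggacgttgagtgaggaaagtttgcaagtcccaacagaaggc
Col4a6: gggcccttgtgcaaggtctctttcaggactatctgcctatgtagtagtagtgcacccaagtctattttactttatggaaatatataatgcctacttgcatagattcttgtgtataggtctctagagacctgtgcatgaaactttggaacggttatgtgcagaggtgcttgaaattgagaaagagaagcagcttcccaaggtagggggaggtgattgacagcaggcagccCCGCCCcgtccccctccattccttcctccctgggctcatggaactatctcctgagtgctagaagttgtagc
Itgb8: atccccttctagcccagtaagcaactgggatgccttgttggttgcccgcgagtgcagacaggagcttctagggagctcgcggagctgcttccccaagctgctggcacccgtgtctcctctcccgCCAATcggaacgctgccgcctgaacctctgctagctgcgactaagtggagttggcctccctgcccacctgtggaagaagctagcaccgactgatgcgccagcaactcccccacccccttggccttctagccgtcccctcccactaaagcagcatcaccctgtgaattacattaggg

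The windows of Col4a1 and Col4a2 shared 78 bases, and the annotated transcripts overlapped by 22 bases at their starts, whereas 1342 bases separated the starts of Col4a5 and Col4a6. TATAAA was found in none of the 5 windows, against 13.6% of all 32851 RefSeq windows of 300 bases. CCAAT was found once in each window but that of Col4a6, against 37.4% of all windows. GGGCGG was found 3 times in Col4a2, once each in Col4a1, Col4a5 and Col4a6 and not in Itgb8, against 35.7% of all windows. The match in Col4a1 lies in the 78 shared bases and is also among the 3 of Col4a2. G and C made up 74% and 73.7% of the Col4a1 and Col4a2 windows and 52.7% and 48.3% of those of Col4a5 and Col4a6. These matches describe letters in the windows and not bound sites.

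Col4a5 was the most abundant type IV chain at 31.3 CPM per kilobase, ahead of Col4a1 (6.23) and Col4a2 (5.36). It had 214, 221 and 134 CPM with IGF-1 and 229 and 225 CPM in the controls. The 4 libraries other than IGF-1 replicate 5 were close together, and replicate 5 was far below them. The log2 fold change was −0.26 ± 0.17 (SE, edgeR adjusted p = 0.557) with replicate 5 and −0.07 without it. Col4a3 and Col4a4, which form the third pair, were at 0.154 and 0.352 CPM per kilobase.

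**Figure D2:**
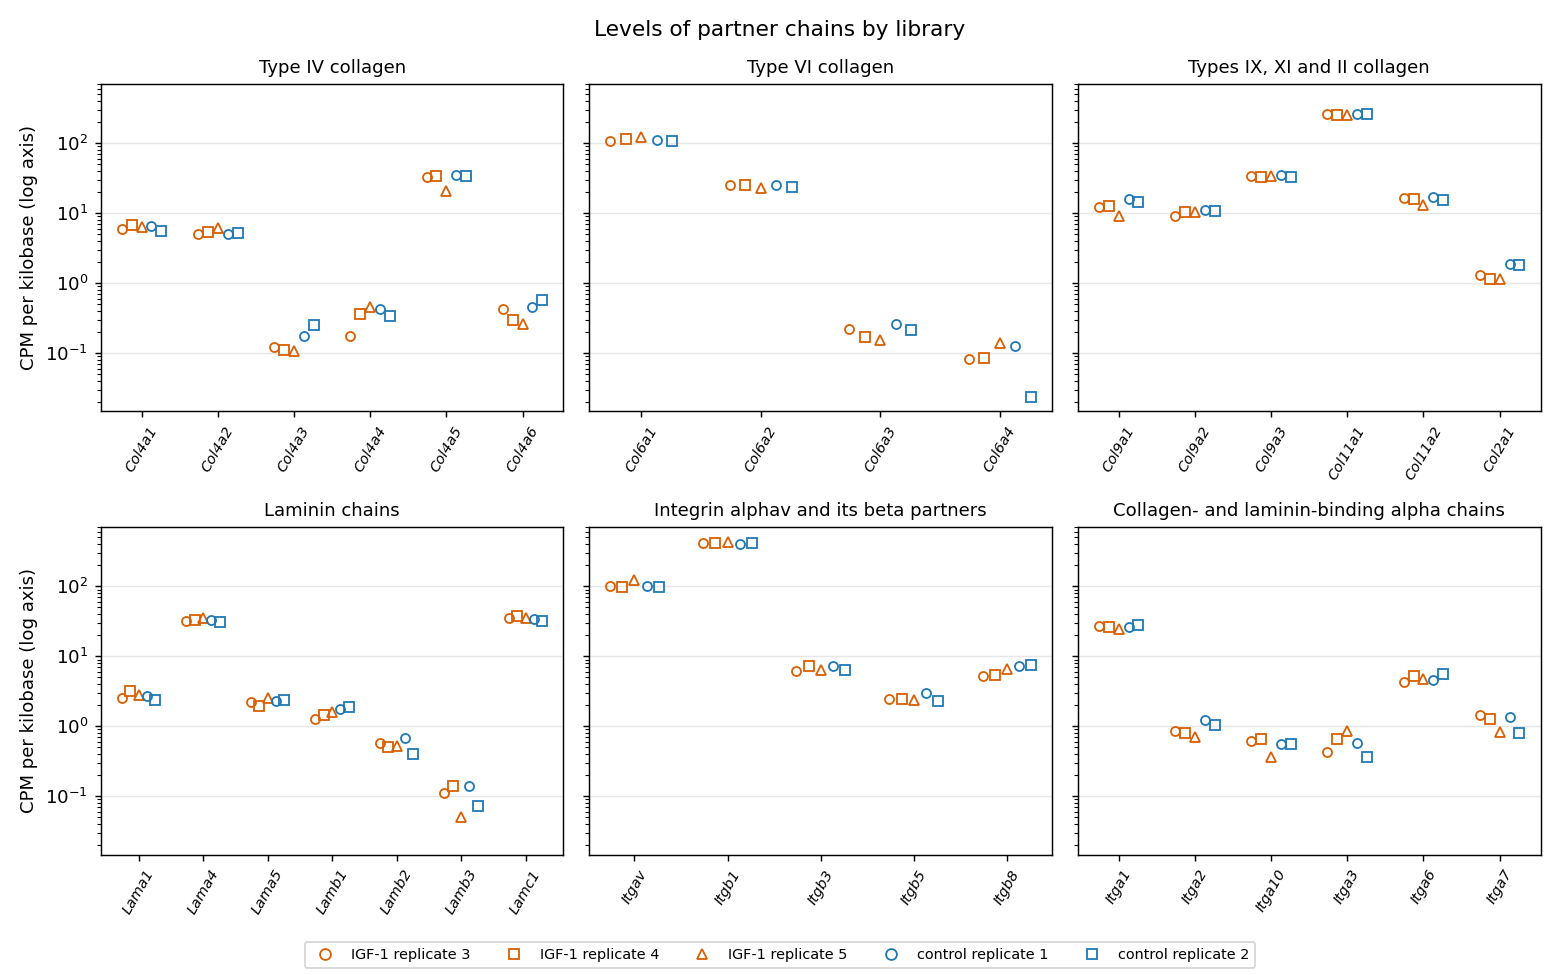
Levels of chains grouped by type, partner or ligand, in CPM per kilobase (log axis), with 1 symbol for each library, IGF-1 libraries in orange left of controls in blue. Col4a1 and Col4a2 are level, whereas Col4a5 stands well above Col4a6, Col6a1 above Col6a3, Col11a1 above Col2a1, and Lama4 and Lamc1 above every laminin beta chain.

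Laminin transcripts were made up almost wholly of Lamc1 and Lama4, at 34.8 and 32.8 CPM per kilobase. Lamc1 encodes the gamma chain shared by most laminins and Lama4 an alpha chain typical of vessel and nerve basement membranes. Lamc1 had 265, 284 and 273 CPM with IGF-1 and 259 and 245 CPM in the controls. Each IGF-1 library was above both controls, by a small margin. Its log2 fold change was 0.12 ± 0.06 (SE, edgeR adjusted p = 0.47). Lama4 had 196, 201 and 213 CPM with IGF-1 and 196 and 186 CPM in the controls, and the groups overlapped. Per kilobase, Lama4 was 0.890 to 0.986 times Lamc1 in the 5 libraries. With all exons of each gene as its length, Lama4 was at 16.4 CPM per kilobase and Lamc1 at 32.1, so their likeness rests on the choice of transcript.

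Transcripts of the beta chains, which a laminin trimer also needs, were scarce. Alpha and gamma chains held 50.3% and 46.7% of the summed laminin level per kilobase, and the 3 beta chains together 2.98%. Lamb1 was at 1.59, Lamb2 at 0.540 and Lamb3 at 0.104 CPM per kilobase. Lama1 and Lama5, alpha chains of early and mature basement membranes, were at 2.70 and 2.28. Lama2, Lama3 and Lamc3 did not reach the count filter.

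Itgb1 encodes the beta chain that pairs with the largest number of alpha chains, including those that bind collagen and laminin. It was the highest of all members, with 1577, 1592 and 1659 CPM with IGF-1 and 1514 and 1563 CPM in the controls. Each IGF-1 library was slightly above both controls, and the log2 fold change of 0.06 (95% interval −0.07 to 0.20, edgeR adjusted p = 0.701) was within the spread. At 414 CPM per kilobase it held 95.9% of the summed integrin beta level and stood at percentile 99.5 of tested genes. Its level was 2.25 to 2.57 times the sum of its 12 alpha partners per kilobase. Itgb3, Itgb8, Itgb5 and Itgb4 followed at 6.71, 6.40, 2.51 and 1.78 CPM per kilobase.

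Among alpha chains, those that bind the RGD motif of fibronectin, vitronectin and related ligands held 78.2% of the summed level per kilobase, collagen-binding chains 16.3% and laminin-binding chains 3.84%. Itgav, which pairs with several beta chains, made up 60.6% on its own. It had 721, 690 and 867 CPM with IGF-1 and 705 and 697 CPM in the controls. Replicate 5 was above the other 4 libraries, which overlapped. Itga8, whose product with Itgb1 is the receptor of nephronectin, had 146, 150 and 192 CPM with IGF-1 and 138 and 146 CPM in the controls. Replicate 5 was again the highest, and the log2 fold change of 0.20 ± 0.11 (SE, edgeR adjusted p = 0.489) was 0.06 without it. Itga1, a collagen receptor chain, had 295, 288 and 271 CPM with IGF-1 and 290 and 312 CPM in the controls, with overlapping groups. Per kilobase Itga8 and Itga1 were both at 26.5, and no other alpha chain but Itgav was above 4.88, the level of the laminin receptor chain Itga6. With all exons of each gene as its length Itga8 was at 20.9 and Itga1 at 15.7, so their equality rests on the choice of transcript. The lowest tested alpha chains were Itga4 at 0.164 and Itgae at 0.437 CPM per kilobase, the first a receptor chain for fibronectin and VCAM-1, the second the partner of Itgb7 on lymphocytes.

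Exons of 7 tested members shared more than 5% of their bases with another annotated gene (build GRCm38), among them Itgav (5.90%), Itga8 (5.05%) and Col9a3 (6.07%). Itga10 shared 33.5% with a predicted gene on the same strand. The sources used here do not give how reads in such overlaps were counted.

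The 20 untested members had 0 to 11 counts in a library, where 3 counts correspond to 0.147 to 0.177 CPM. They are Col8a1, Col8a2, Col10a1, Col13a1, Col17a1, Col19a1, Col24a1, Col26a1, Col6a5, Col6a6, Lama2, Lama3, Lamc3, Itga11, Itgad, Itgal, Itgam, Itgax, Itgb2 and Itgb7. Itgal, Itgam, Itgax and Itgad with their partner Itgb2 are the integrins of white blood cells, and markers of microglia and macrophages summed to 5.83, 5.87 and 7.42 CPM with IGF-1 and to 7.73 and 7.48 CPM in the controls. Most of these sums was Cd68, with 4.79, 4.97 and 6.74 CPM with IGF-1 and 6.63 and 6.77 CPM in the controls. A mean under 1 CPM was found for 6 of the 7 markers.

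The comparison of IGF-1 with control cells asks which transcripts change when the growth factor is added to co-cultured glioma cells. No collagen, laminin or integrin gene passed the test. With edgeR's quasi-likelihood test and p-values adjusted over 16051 genes, 0 of 60 members were higher and 0 were lower at an adjusted p under 0.05, where 0.679% of all genes tested were higher and 0.343% lower. DESeq2 and limma-voom also called 0 members in either direction, where DESeq2 called 1.18% of genes higher and 0.561% lower and limma-voom 0.523% and 0.312%. Without a filter on low counts, edgeR called 0 of 80 members higher and 4 (5%) lower, against 1.31% and 0.749% of 29495 genes. The 4 were Col2a1, Col4a5, Col9a1 and Itgb8. Of these, Col4a5 was far lower in IGF-1 replicate 5 than in the other libraries. In the filtered fit its log2 fold change was −0.07 without that replicate. With the filter and all 5 libraries, edgeR gave 0 higher members at an unadjusted p under 0.05, against a background of 7.08%. It gave 8 lower members (13.3%), against 5.48%. DESeq2 gave 0 higher and 5 lower members at that level, against 5.07% and 3.28%.

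The members went both ways. Their median log2 fold change was −0.04, with 38 of 60 below 0 (63.3%), against −0.01 and 51.6% for all genes tested. By family the median was −0.07 for collagens, −0.04 for laminins, 0.09 for integrin alpha and −0.06 for integrin beta chains. Without replicate 5 these medians were −0.07, 0.01, 0.00 and −0.12, and no test was made of the difference between members and other genes. Values of the 2 groups did not overlap for 5 members that were higher with IGF-1 (8.33%, background 16.2%) and 13 that were lower (21.7%, background 16.7%). The 5 were Col1a2, Lamc1, Itga8, Itgae and Itgb1. Among the 13 were Col2a1, Col4a3, Col4a5, Col4a6, Col5a3, Col9a1, Col9a2, Col11a1, Lamb1, Itga2, Itga2b and Itgb8.

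**Figure D3:**
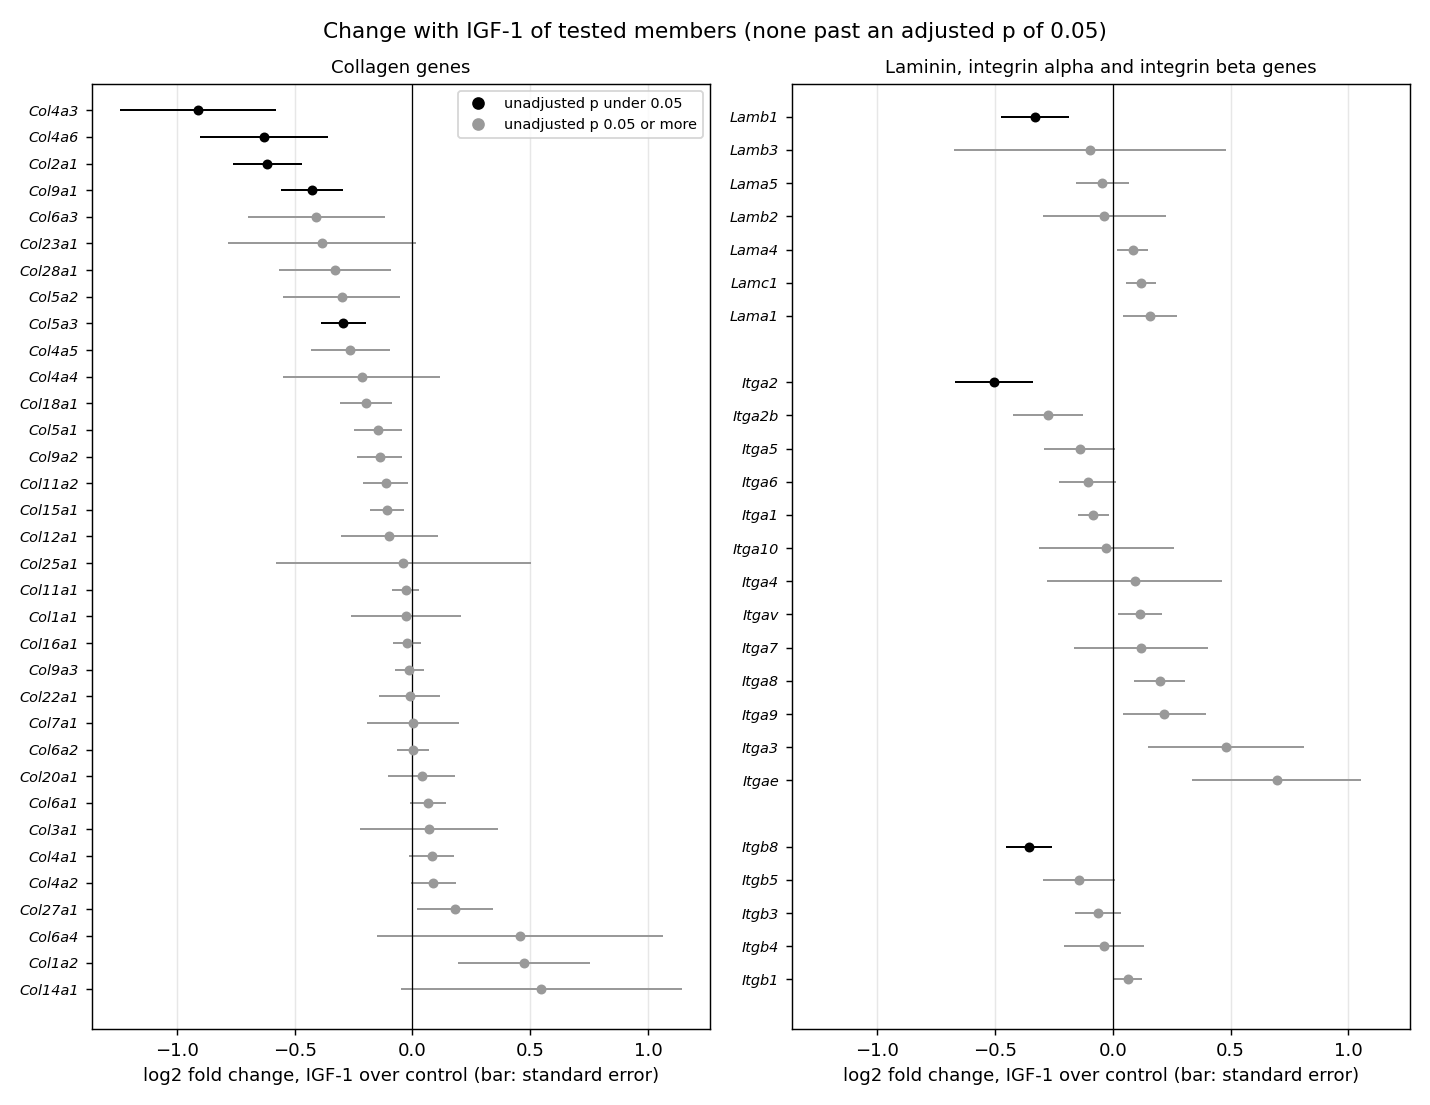
Log2 fold change of IGF-1 over control (point) with its standard error (bar) for tested members, in black where the unadjusted edgeR p was under 0.05. All 8 black points, Col4a3, Col4a6, Col2a1, Col9a1, Col5a3, Lamb1, Itga2 and Itgb8, lie left of 0, and the widest bars belong to genes with few counts.

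Col2a1, the type II collagen chain of cartilage, had the smallest p of all members. It had 6.77, 5.87 and 5.86 CPM with IGF-1 and 9.46 and 9.42 CPM in the controls. The IGF-1 libraries lay together, well below the controls. The mean was 6.17 ± 0.522 CPM with IGF-1 (SD, n = 3) and 9.44 ± 0.0235 CPM in the controls (SD, n = 2), and the log2 fold change was −0.61 ± 0.14 (SE, 95% interval −0.94 to −0.29, edgeR adjusted p = 0.0914).

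Itgb8 encodes a partner of Itgav, and the pair is known to activate latent TGF-beta. It had 44.6, 45.2 and 55.3 CPM with IGF-1 and 60.8 and 63.0 CPM in the controls. All IGF-1 libraries were below both controls, with replicate 5 nearest to them. The means were 48.4 ± 5.98 CPM with IGF-1 (SD, n = 3) and 61.9 ± 1.59 CPM in the controls (SD, n = 2). The log2 fold change was −0.35 ± 0.10 (SE, 95% interval −0.57 to −0.14, edgeR adjusted p = 0.155). Its promoter window is shown above.

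Col9a1, a chain of the type IX collagen that coats type II fibrils, had 47.2, 49.3 and 34.6 CPM with IGF-1 and 61.6 and 55.8 CPM in the controls. All IGF-1 libraries were below both controls, with replicate 5 the lowest. The log2 fold change was −0.43 ± 0.13 (SE, edgeR adjusted p = 0.208). Of its partner chains Col9a2 had 26.4, 30.5 and 30.1 CPM with IGF-1 and 32.9 and 31.0 CPM in the controls, and Col9a3 had 103, 99.8 and 103 CPM with IGF-1 and 106 and 99.6 CPM in the controls. The Col9a2 groups were narrowly apart and those of Col9a3 overlapped.

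Col5a3, a type V chain, had 29.2, 25.8 and 26.3 CPM with IGF-1 and 31.5 and 34.9 CPM in the controls, a log2 fold change of −0.29 ± 0.10 (SE, edgeR adjusted p = 0.23). Itga2, a collagen receptor chain, had 6.16, 5.71 and 5.03 CPM with IGF-1 and 8.65 and 7.30 CPM in the controls, a log2 fold change of −0.50 ± 0.16 (SE, edgeR adjusted p = 0.233). Lamb1, the most abundant beta chain of laminin, had 7.10, 8.15 and 8.84 CPM with IGF-1 and 9.69 and 10.5 CPM in the controls, a log2 fold change of −0.33 ± 0.14 (SE, edgeR adjusted p = 0.387). For all 3 genes every IGF-1 library was below both controls, and none passed the test.

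The type IV chains Col4a3 and Col4a6 had the most negative values with unadjusted p under 0.05, at low levels. Col4a3 had 1.05, 0.952 and 0.928 CPM with IGF-1 and 1.50 and 2.18 CPM in the controls, a log2 fold change of −0.91 ± 0.33 (SE, edgeR adjusted p = 0.287). Col4a6 had 2.81, 2.01 and 1.76 CPM with IGF-1 and 3.00 and 3.77 CPM in the controls, a log2 fold change of −0.63 ± 0.27 (SE, edgeR adjusted p = 0.377). The IGF-1 libraries were below both controls in each, and for Col4a6 replicate 3 came close to a control. The abundant pair Col4a1 and Col4a2 had log2 fold changes of 0.08 and 0.09.

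**Figure D4:**
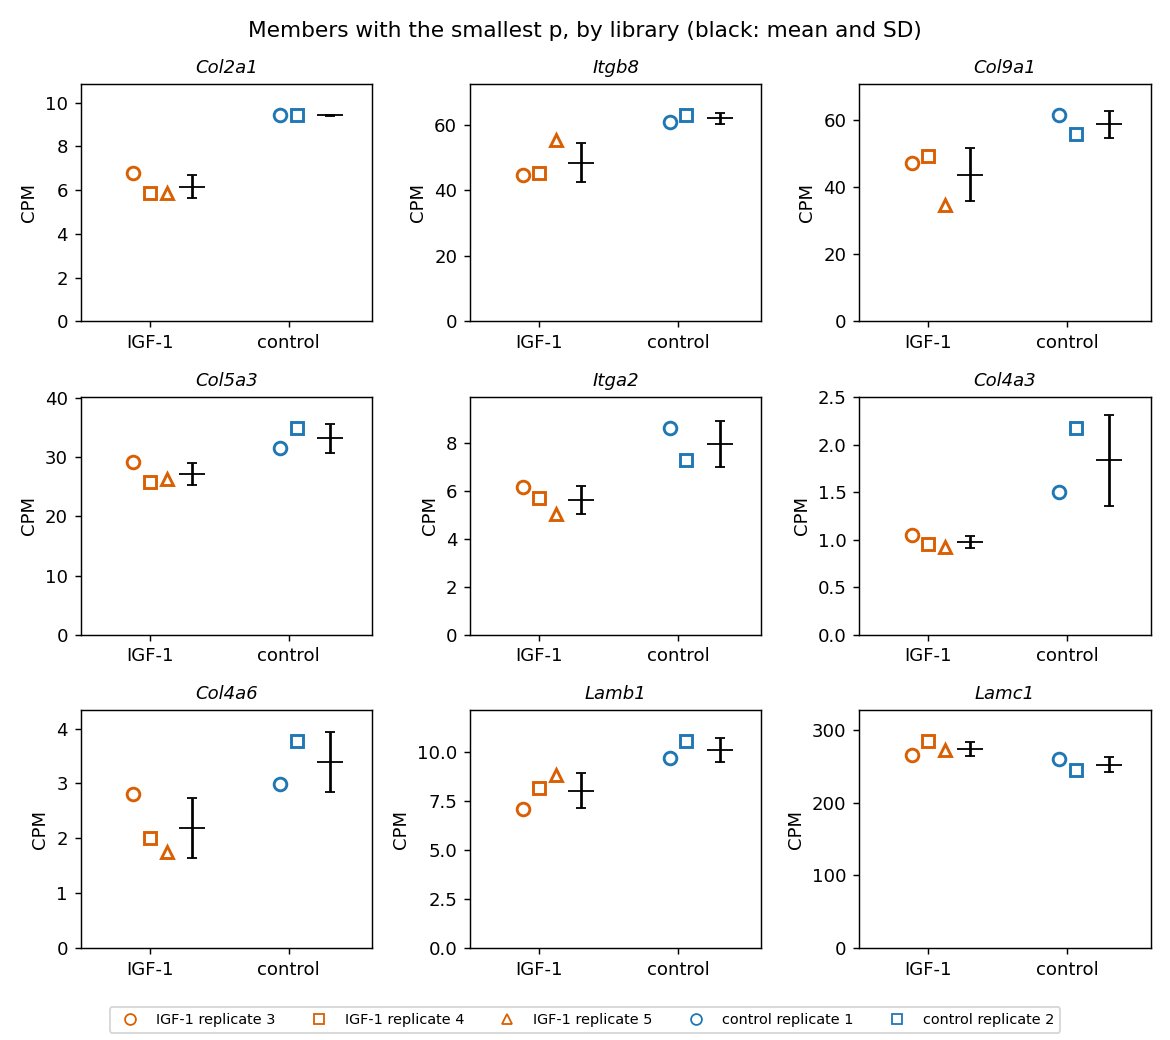
CPM in each library (symbols, IGF-1 left of control) with mean and SD (black) for the 8 members with an unadjusted edgeR p under 0.05 and for Lamc1, on axes that start at 0. In the first 8 panels the IGF-1 symbols are below the control symbols, and in the Lamc1 panel they are above them by a small margin.

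Positive values above 0.4 on the log2 scale belonged to 5 genes with few counts, Itgae, Col14a1, Itga3, Col1a2 and Col6a4, at 0.70, 0.55, 0.48, 0.47 and 0.46. Itgae had 1.65, 2.70 and 1.61 CPM with IGF-1 and 1.44 and 1.00 CPM in the controls, a log2 fold change of 0.70 ± 0.36 (SE, edgeR adjusted p = 0.46). Col1a2, a chain of type I collagen, had 3.19, 4.71 and 2.69 CPM with IGF-1 and 2.54 and 2.53 CPM in the controls, a log2 fold change of 0.47 ± 0.28 (SE, edgeR adjusted p = 0.523). In both genes replicate 4 was the highest, and without it the log2 fold changes were 0.41 for Itgae and 0.21 for Col1a2. Col1a1, the partner of Col1a2, had 5.12, 5.18 and 3.61 CPM with IGF-1 and 5.53 and 3.89 CPM in the controls, with overlapping groups.

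For the abundant members the data set narrow bounds. Of the 31 with a mean of at least 10 CPM, 27 had a log2 fold change between −0.25 and 0.25, and the 95% interval lay inside a 1.5-fold change in either direction for 28. The others were Col4a5, Col9a1 and Itga9. Their standard errors ran from 0.0582 to 0.175 on the log2 scale. Of the 29 tested members with lower means, 5 had an interval that narrow, and standard errors ran from 0.145 to 0.607.

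IGF-1 replicate 5 lay outside the other 4 libraries and at least 1.25-fold from the mean of IGF-1 replicates 3 and 4 for 18 members. It was higher in 8 (13.3%, background 9.42%), which were Col4a4, Col6a4, Col20a1, Col27a1, Itga3, Itga8, Itga9 and Itgb4. It was lower in 10 (16.7%, background 9.06%), which were Col1a1, Col3a1, Col4a5, Col4a6, Col5a2, Col9a1, Col18a1, Col25a1, Itga10 and Lamb3. For Col20a1 it had 143 CPM, against 97.5 and 100 CPM in the other IGF-1 libraries and 111 and 111 CPM in the controls.

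Without replicate 5 edgeR called 5.43% of 15701 genes higher and 3.64% lower, and among the members 1 was higher and 5 were lower. Lamc1 was higher (log2 fold change 0.12, adjusted p = 0.0417). Itgb8 was lower (−0.46, adjusted p = 1.63e-07), as were Col2a1 (−0.58, adjusted p = 0.00758), Col9a1 (−0.28, adjusted p = 0.0025), Col5a3 (−0.27, adjusted p = 0.0317) and Col20a1 (−0.16, adjusted p = 0.0259). These p-values leave out the largest part of the spread between the IGF-1 libraries. With all 5 libraries the edgeR adjusted p of these genes ran from 0.0914 (Col2a1) to 0.931 (Col20a1), and that of Itgb8 was 0.155. DESeq2 without replicate 5 called 0 members higher and 1 lower, Itgb8, against 2.42% and 1.21% of genes. The log2 fold change of Col20a1 was 0.04 with replicate 5, so its direction rests on that library.

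**Figure D5:**
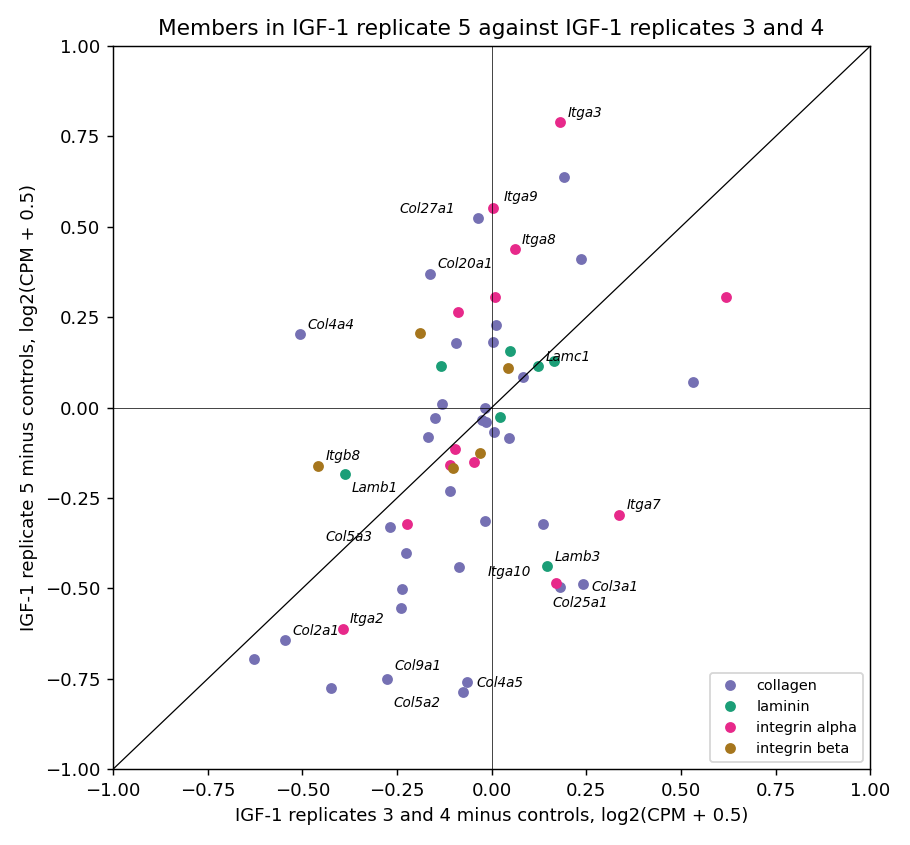
Difference from the control mean in IGF-1 replicates 3 and 4 (horizontal) and in IGF-1 replicate 5 (vertical), both as log2(CPM + 0.5), for tested members coloured by family, with the line of equality. Col2a1, Itgb8, Col9a1, Col5a3, Itga2 and Lamb1 are below 0 on both axes, Lamc1 is above 0 on both, and Col20a1, Col27a1, Itga9 and Col4a5 lie far from the line.

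Ratios between the levels of partner chains are given as a description, since the pairs were picked after their values were seen, and no test was made on them. Itgav to Itgb8 was 19.3, 18.2 and 18.7 per kilobase with IGF-1 and 13.8 and 13.2 in the controls. Lamc1 to Lamb1 was 27.2, 25.4 and 22.5 with IGF-1 and 19.5 and 16.9 in the controls. Col11a1 to Col2a1 was 194, 219 and 221 with IGF-1 and 141 and 140 in the controls. Each ratio was higher in every IGF-1 library than in either control, replicate 5 included. Itgb8, Lamb1 and Col2a1 were themselves lower in every IGF-1 library, so the ratios are not results apart from those. The laminin beta chains, of which Lamb1 was the largest part, summed to 1.97, 2.11 and 2.16 CPM per kilobase with IGF-1 and to 2.57 and 2.38 in the controls.

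Other genes of the pathway were read from 6 lists of partners, of which the genes highest in CPM, not per kilobase, are named where none was called. The lists were chosen with earlier results of these data known, so their shares of calls are given as a description. Over all genes tested, edgeR called 0.679% higher and 0.343% lower and DESeq2 1.18% and 0.561%. At an unadjusted p under 0.05 edgeR gave 7.08% higher and 5.48% lower. Of 26 tested enzymes that process collagen, 0 were called in either direction by edgeR or DESeq2, and before adjustment edgeR gave 1 higher and 0 lower at p under 0.05. The most abundant by CPM, P4hb, a subunit of prolyl hydroxylase, and Bmp1, which cleaves procollagens, had log2 fold changes of −0.04 and 0.17. Of 16 basement membrane partners 0 were called by either tool, with 1 higher and 0 lower unadjusted, and the log2 fold changes were 0.13 for Agrn (agrin) and 0.02 for the collagen-binding Sparc. Of 21 other integrin ligands 0 were called by either tool, with 1 higher and 3 lower unadjusted, and the log2 fold changes were 0.05 for Fbn2 (fibrillin) and 0.07 for Mfge8, an RGD ligand. Of 16 other receptors of collagen and laminin 0 were called by either tool, with 3 higher and 0 lower unadjusted, and the log2 fold changes were 0.00 for the tetraspanin Cd9 and 0.12 for the syndecan Sdc3. Median log2 fold changes of these 4 lists ran from −0.01 to 0.09. Without IGF-1 replicate 5 edgeR called 2 collagen enzymes and 1 other receptor higher, and 1 other ligand lower. No other gene of these 4 lists was called, where 5.43% of all genes were higher and 3.64% lower.

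Calls were found among the proteins that sit behind integrins at focal adhesions, where 2 of 36 tested genes rose and 1 fell, against the 0.679% and 0.343% of all genes. Since this list too was chosen with earlier results known, its share of calls is no separate support. DESeq2 called 3 higher and 2 lower (1.18% and 0.561%), and before adjustment edgeR gave 5 higher and 4 lower at p under 0.05 (7.08% and 5.48%). Zyx, which encodes the actin-binding adaptor zyxin, had 131, 134 and 143 CPM with IGF-1 and 101 and 93.5 CPM in the controls. Its log2 fold change was 0.49 ± 0.07 (SE, edgeR adjusted p = 0.0119). Vcl, the gene of vinculin, which ties talin to actin, had 123, 127 and 127 CPM with IGF-1 and 95.8 and 98.0 CPM in the controls, and its log2 fold change was 0.38 (edgeR adjusted p = 0.0217). Nedd9, a docking protein of focal adhesions, had 72.9, 81.6 and 80.3 CPM with IGF-1 and 105 and 106 CPM in the controls, a log2 fold change of −0.43 (edgeR adjusted p = 0.0205). The groups did not overlap in any of the 3 genes. The calls rest on having both controls. Without control replicate 1 the edgeR adjusted p was 0.240 for Zyx, 0.478 for Vcl and 0.375 for Nedd9, and without control replicate 2 it was 0.392, 0.402 and 0.420. With IGF-1 replicate 3 or 4 left out Zyx was still called, and Vcl and Nedd9 were not, at adjusted p of 0.0601 to 0.0983. Without IGF-1 replicate 5 edgeR called 6 genes of the list higher and 4 lower, against 5.43% and 3.64% of all genes. The median of the list was 0.05.

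Among 33 tested matrix proteases and their inhibitors 0 rose and 1 fell with edgeR (0.679% and 0.343% of all genes). Before adjustment 4 were higher and 2 lower (7.08% and 5.48%), and DESeq2 called 1 in each direction (1.18% and 0.561%). Reck, the gene of a membrane-bound inhibitor of matrix metalloproteases, had 35.6, 33.2 and 35.7 CPM with IGF-1 and 48.8 and 52.0 CPM in the controls. All IGF-1 libraries were below both controls, and the log2 fold change was −0.53 ± 0.08 (SE, edgeR adjusted p = 0.0153). The call was lost with any library other than replicate 5 left out, at edgeR adjusted p of 0.0622 to 0.392. With IGF-1 replicate 5 left out, edgeR called 4 genes of the list higher and 1 lower, against 5.43% and 3.64% of all genes. The median of the list was 0.04.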

How the data were processed

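Polyadenylated RNA of sorted mouse glioma cells was sequenced in 3 libraries with IGF-1 and 2 without. The authors deposited 1 table of raw counts for each library, with genes given by symbol. The submitters' processing notes name GRCm39 as the build and, as tools, featureCounts 2.0.1, STAR 2.7.9a, cutadapt 3.4 and DESeq2 1.28.1. Annotation, strand setting and treatment of multiply mapped reads are not given in the sources used here.

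Groups came from the titles and treatment labels. Genes with at least 10 counts in at least 2 libraries (16051) were fitted together in R 4.3.3 with edgeR 4.0.16 (TMM factors, quasi-likelihood F-test, two-sided), p-values were Benjamini-Hochberg adjusted over all of them, and the threshold was 0.05. With 16944315 to 20144181 counts a library, 3 counts are 0.147 to 0.177 CPM. Intervals of fold changes are 95% intervals from the same fit. CPM per kilobase used principal transcripts of the GENCODE annotation of GRCm38, found by symbol for 97.5% of tested genes and all 80 members, and no coordinate was carried between builds. RefSeq held a promoter window for 57 of the 80.

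Alternatives were RLE factors, no factors, 3 other filters, DESeq2 1.42.0, limma-voom (limma 3.58.1) and each library left out. DESeq2 with each library left out was added after seeing the data. The procedure was tested on simulated data. The members and lists were chosen with earlier results of these data known. Members were named by rule, which takes the 5 most abundant and the 3 with the smallest p in each direction of each family, and the called or most abundant genes of each list. All other members named were chosen after their values were seen. Fermt1 and Gp6, of the lists, were not analysed here, and 1 item is not reported here.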

Additional observations from a re-analysis of the deposited data

How the results depend on the processing

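Called members numbered 0 higher and 0 lower with RLE factors, no factors, both stricter filters, DESeq2, limma-voom and each library left out other than IGF-1 replicate 5. Without a filter on low counts 385 of all genes were higher and 221 lower, and 4 of 80 members were lower (5%, against 0.749% of all genes). DESeq2 called 190 genes higher and 90 lower, against 109 and 55 with edgeR. With 1 library left out, edgeR called 0 to 853 genes higher and 0 to 572 lower, and 0 to 1 members higher and 0 to 5 lower, the highest values being those without IGF-1 replicate 5. Likewise DESeq2 called 24 to 380 genes higher and 9 to 190 lower, and 0 to 1 members lower. EdgeR called 0 genes in either direction without control replicate 1 (DESeq2 32 higher and 9 lower, edgeR before adjustment 659 and 450), and 0 higher and 2 lower without control replicate 2 (DESeq2 24 and 10, edgeR before adjustment 541 and 375), where the spread of the lone control has to be taken from the IGF-1 libraries. The median log2 fold change of the members ran from −0.115 to −0.00369 and was below 0 in every setting.

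The log2 fold change changed sign with 1 library left out in 25 of the 60 tested members, 4 to 9 for each library, and the cause was not tested. Among the 31 members named by rule it did so in 7. Over the libraries left out, Col20a1 ran from −0.16 to 0.14, Col27a1 from −0.0372 to 0.282, Itga6 from −0.227 to 0.0243, Itgb3 from −0.155 to 0.0345, Itgb4 from −0.19 to 0.11, Itgb5 from −0.309 to 0.0457 and Lama5 from −0.136 to 0.0388. The sign turned without IGF-1 replicate 5 for both collagens, without IGF-1 replicate 3 for Itgb4, without IGF-1 replicate 4 for Lama5, without control replicate 1 for Itgb3 and Itgb5 and without control replicate 2 for Itga6. No paired analysis was possible because the groups share no replicate number. With 3 and 2 libraries, changes of members with few counts were bounded only widely.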
